A study of Mus musculus with 9 samples.

Results

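The genes described here are 10 antioxidant and metallothionein genes, Gpx1, Gpx3, Cat, Sod1, Sod2, Nqo1, Txnrd1, Hmox1, Mt1 and Mt2, taken by their symbols from a table of 22183 genes. All 10 were in the table, and all 10 were among the 14211 genes with enough counts to be tested. Their RNA was measured in mouse tibia, in 9 libraries of polyadenylated RNA, 3 in each of 3 groups. Naive tibiae were left untreated. Ti tibiae were given titanium particles, which stand for the wear debris that loosens an implant without infection. Ti+I-OG tibiae were given titanium particles and I-OG, an injectable natural polymer gel loaded with irisin, a peptide hormone of muscle. The hydrogel had acted for 5 weeks. That time is stated for the treatment only, and the sources used here state no strain, sex, age or particle dose. Naive tibiae had no treatment at all, so an effect of the particles and one of their delivery cannot be told apart, and no gel without irisin was analysed here. No label says that the libraries of a group came from separate mice, so the spread that p-values rest on may be technical.

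Superoxide leaks from the respiratory chain and is made on purpose by the NADPH oxidase of phagocytes. Superoxide dismutases turn it into hydrogen peroxide, which catalase and the glutathione peroxidases then break down. Nqo1, Txnrd1 and Hmox1 are among the classical targets of NRF2, a transcription factor that binds antioxidant response elements in DNA. Metallothioneins are small cysteine-rich proteins that bind zinc and copper, and the zinc-sensing factor MTF1 switches their genes on through metal response elements. In a tibia with its marrow, red cell precursors are rich in peroxide-removing enzymes, and macrophages that take up old red cells use haem oxygenase to open the haem ring.

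Mt2 and Mt1 are neighbours on mouse chromosome 8, and their upstream sequences are shown because the metallothioneins were the members whose promoters held most matches to a metal response element. RefSeq windows of 250 bases before and 50 after the start of a gene were found for 9 of the 10 genes, all but Hmox1. There were 11 such windows (build GRCm38.p6). Both strands were searched for the metal response element core, TGCACNC or TGCGCNC, and for the antioxidant response element core, TGACNNNGC. The 250 bases before the start follow, 5′ to 3′ on the plus strand, with the metal response element cores in capitals. Mt2 lies at chr8:94172368-94172617 and Mt1 at chr8:94178839-94179088.
Mt2: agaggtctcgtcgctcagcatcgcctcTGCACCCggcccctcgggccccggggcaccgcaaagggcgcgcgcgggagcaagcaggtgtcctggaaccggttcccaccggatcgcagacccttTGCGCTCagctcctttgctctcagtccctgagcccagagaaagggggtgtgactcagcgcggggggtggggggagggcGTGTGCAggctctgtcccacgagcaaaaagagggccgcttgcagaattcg
Mt1: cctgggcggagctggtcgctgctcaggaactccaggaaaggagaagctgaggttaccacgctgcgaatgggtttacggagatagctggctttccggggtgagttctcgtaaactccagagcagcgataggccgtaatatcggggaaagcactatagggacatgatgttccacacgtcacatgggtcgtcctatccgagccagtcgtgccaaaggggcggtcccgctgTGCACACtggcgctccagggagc

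The Mt2 window held 4 metal response element cores, 3 of them before the start at 223, 128 and 50 bases from it and 1 beginning at base 5 after it. Its single antioxidant response element core, TGACTCAGC, lay 79 bases before the start. The Mt1 window held 3 metal response element cores, 1 beginning 23 bases before the start and the others at bases 3 and 21 after it, and no antioxidant response element core. Of all 32851 windows in the table, 25.7% held at least 1 metal response element core and 1.97% held 3 or more, while 12.4% held an antioxidant response element core. The only other matches among the members were an antioxidant response element core, TGACCACGC, 56 bases before the start of Sod1 and another, TGACAAAGC, 92 bases before 1 of the 3 starts of Txnrd1, both on the opposite strand. A match is a run of letters and not a measured binding site. The starts are those of the RefSeq annotation. No base further than 250 before or 50 after a start was searched, so elements lying further away on either side would be missed. Hmox1 had no window and was not searched at all.

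Libraries held 16256081 to 24766502 counts. Naive replicate 3 stood apart: it had the lowest share of globin counts (2.95%, against 6.03% and 9.47% in the other naive libraries) and the lowest summed level of the osteoblast and B lineage markers. It was the lowest of the 9 libraries for 7 of the 10 genes and the highest for Txnrd1, so results against naive are given with and without it. Markers of bone-forming cells were present throughout, with all 8 osteoblast and osteocyte markers counted in every library. Erythroid markers took 3.24% to 9.99% of counts in naive, 7.05% to 10.4% in Ti and 15.6% to 16.5% in Ti+I-OG. Fibrous tissue markers took 0.0182% to 0.0531%, 0.112% to 0.266% and 0.0802% to 0.147%, and adipocyte markers 0.0214% to 0.048%, 0.053% to 0.121% and 0.053% to 0.127%, in the same order. In such bulk RNA, fewer cells of a type and less RNA per cell cannot be told apart.

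The genes differed widely in level when compared per transcript length, as FPKM. Gpx1, the cytosolic glutathione peroxidase that carries selenium, led in every group with a mean of 1760 FPKM in naive, where it ranked 28 of 22183 genes, 1930 FPKM in Ti and 2800 FPKM in Ti+I-OG, where it ranked 18. In naive the order was then Sod1 (236 FPKM), Gpx3 (193), Hmox1 (123), Cat (68.7), Mt1 (65.1), Txnrd1 (33.8), Mt2 (33.1), Sod2 (9.58) and Nqo1 (8.01). Neighbours in that order overlapped between libraries except at 3 steps, below Gpx1, between Mt1 and Txnrd1, and between Mt2 and Sod2. In Ti and Ti+I-OG, Gpx3 stood above Sod1 with no overlap between libraries (316 to 487 against 257 to 308 FPKM in Ti, 319 to 417 against 288 to 298 FPKM in Ti+I-OG). Mt2 stood above Txnrd1 in both groups, also with no overlap (45.2 to 70.7 against 24.8 to 26.7 FPKM in Ti, 36.9 to 71.6 against 24.1 to 25.3 FPKM in Ti+I-OG).

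**Figure D1:**
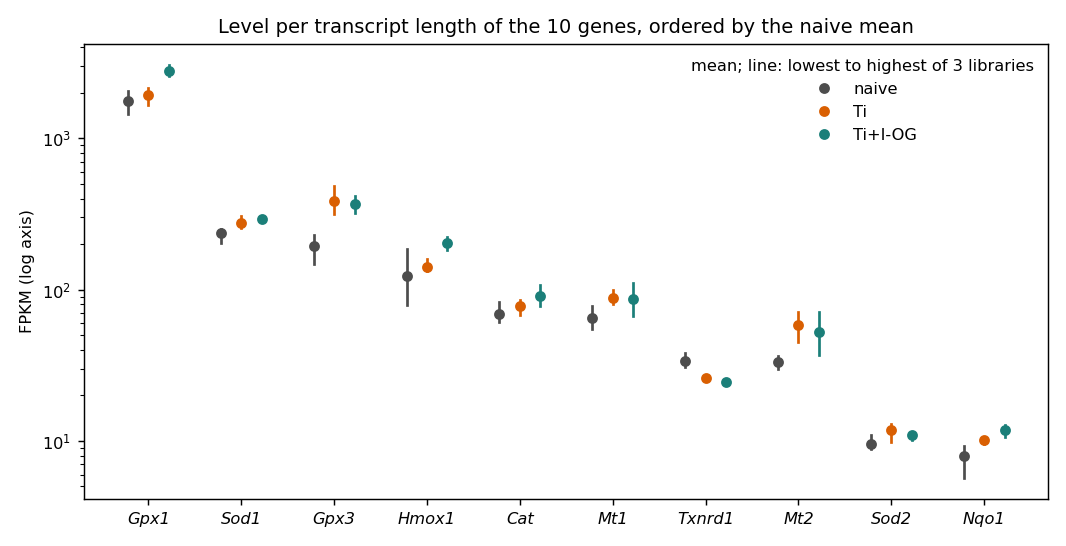
FPKM of the 10 genes on a log axis, ordered by the naive mean. Points are means and lines run from the lowest to the highest of 3 libraries. Gpx1 lies above every other member in all groups, and Gpx3 and Mt2 pass Sod1 and Txnrd1 in Ti and Ti+I-OG.

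In tibiae with titanium particles, 2 of the 10 genes, Gpx3 and Mt2, were called higher than in naive at an adjusted p under 0.05. Mt2 lay just under that threshold (edgeR adjusted p = 0.04995), and no member was called lower. Of all tested genes 6.43% were called, 4.05% higher and 2.39% lower. For 5 members every Ti library was above every naive one, and for 1, Txnrd1, every Ti library was below. Such a lack of overlap was seen in 27.2% of all tested genes, 14.3% higher and 12.9% lower. An unadjusted p under 0.05 was reached by 4 members and by 26.9% of all genes. The median log2 fold change was 0.34 over the 10 genes and 0.01 over all tested genes.

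Between Ti+I-OG and Ti none of the 10 genes was called, where 0.0422% of all genes were, all of them higher. DESeq2 and limma-voom also called no member. An unadjusted p under 0.05 was reached by 2 members, Gpx1 and Hmox1, and by 7.84% of all genes. Gpx1, Nqo1, Cat and Hmox1 were higher in every Ti+I-OG library than in any Ti library, and no member was lower in that way. Of all genes 14.5% did not overlap, 7.75% higher and 6.71% lower. The median log2 fold change was 0.15 over the members and −0.003 over all genes.

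Compared with naive, Ti+I-OG tibiae had higher Gpx1, Gpx3, Nqo1 and Cat, 4 of the 10 genes, and no member was called lower. Of all genes 8.26% were called, 3.84% higher and 4.43% lower. For 9 members every Ti+I-OG library was above every naive one, and for Txnrd1 every one was below, where 35.5% of all genes did not overlap, 18.7% higher and 16.9% lower. An unadjusted p under 0.05 was reached by 9 members and by 29.8% of all genes. The median log2 fold change was 0.69 over the members and 0.03 over all genes. The 3 comparisons share groups, so their counts are not independent. DESeq2 called 8 members here, where it called 17.5% of all genes, and 2 in Ti against naive, where it called 13.1%. Same-numbered libraries of naive and Ti+I-OG deviated together from their group means, with correlations of 0.115 to 0.273 in the 3 pairs, though no label says what a number stands for. With the replicate number as a block, 9 members were called higher in Ti+I-OG against naive, all but Txnrd1, where 24.3% of all genes were called. Leaving out naive replicate 3, none of the 10 genes was called in any comparison, but then 1.48% of all genes were called in Ti and 1.3% in Ti+I-OG against naive. With the trend of counts on transcript length removed from each library (length offsets), Gpx3 alone was called in each comparison with naive, where 5.74% and 2.49% of all genes were.

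**Figure D2:**
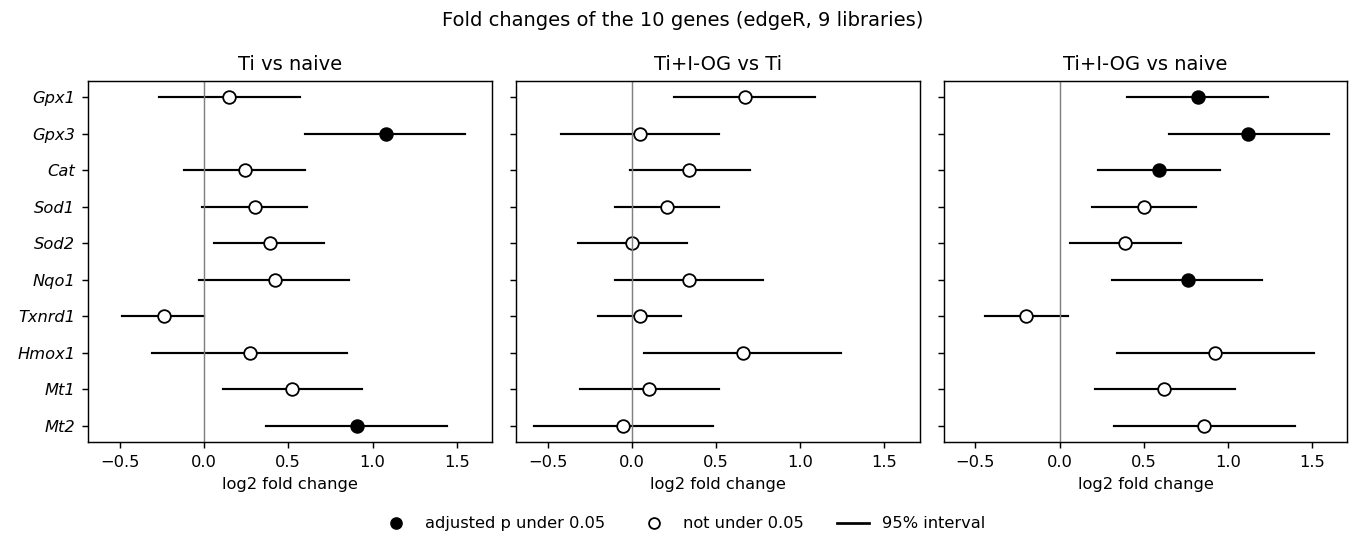
Log2 fold change of the 10 genes in the 3 comparisons, from edgeR's quasi-likelihood fit. Lines are 95% intervals and filled points have an adjusted p under 0.05: 2 in Ti against naive, none in Ti+I-OG against Ti and 4 in Ti+I-OG against naive.

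Gpx3, the secreted glutathione peroxidase of blood plasma and extracellular fluid, showed the largest fold change of the 10 genes in both comparisons with naive. In CPM, its count scaled to library size with TMM factors, it stood at 302, 353 and 215 in naive, 499, 769 and 568 in Ti, and 555, 741 and 601 in Ti+I-OG. Every treated library was above every naive one, while Ti and Ti+I-OG overlapped. Gpx3 rose 2.11-fold in Ti (log2 fold change 1.08, SE 0.218, adjusted p = 0.0206) and 2.18-fold in Ti+I-OG (1.12, SE 0.218, adjusted p = 0.0199) against naive. Between Ti+I-OG and Ti the log2 fold change was 0.05 (95% interval −0.42 to 0.52). Without naive replicate 3 the values against naive were 0.88 (adjusted p = 0.0618) and 0.92 (adjusted p = 0.0613). The call against naive also ended for Ti without naive replicate 1 (adjusted p = 0.0504), Ti replicate 1 (0.0602) or Ti replicate 2 (0.0932), and for Ti+I-OG without its replicate 1 (0.0515) or 2 (0.106). All 13 alternatives other than leaving out a library kept both calls. Markers of other tissues moved in the same comparisons. In Ti 6 of 8 fibrous, 6 of 8 osteoblast, 5 of 7 osteoclast, 1 of 7 adipocyte and 1 of 7 muscle markers were higher, and in Ti+I-OG against naive 4 of 8, 1 of 8, 5 of 7, 4 of 7 and 1 of 7 in the same order. The median log2 fold change of the osteoclast markers was 1.39 and 1.09, and that of the muscle markers 1.38 and 1.36. Without naive replicate 3, the numbers called higher, in the order given above, were 5, 6, 4, 0 and 0 in Ti. In Ti+I-OG against naive they were 4, 1, 2, 0 and 0. With length offsets they were 7, 6, 5, 1 and 0 in Ti, and 4, 1, 5, 1 and 0 in Ti+I-OG. Osteoclast markers took 0.132% to 0.222% of counts in naive, 0.27% to 0.317% in Ti and 0.204% to 0.254% in Ti+I-OG. The part of these markers in the Gpx3 result was not tested.

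Gpx1, which removes hydrogen peroxide in the cytosol, overlapped between naive and Ti and was highest in Ti+I-OG. It was at 1660, 1960 and 1300 CPM in naive, 1580, 1890 and 2000 CPM in Ti, and 2970, 3210 and 2510 CPM in Ti+I-OG. All Ti+I-OG libraries lay above all others, and those of naive and Ti overlapped. Against naive, Gpx1 rose 1.77-fold in Ti+I-OG (log2 fold change 0.82, SE 0.191, adjusted p = 0.0311). Against Ti the log2 fold change was 0.67 (SE 0.191, 95% interval 0.25 to 1.09) and did not pass, with an unadjusted p of 0.00444, the 66th smallest of 14211 genes, and an adjusted p of 0.628. Ti and naive differed by 0.15 (adjusted p = 0.639). The call against naive ended without naive replicate 1 (adjusted p = 0.0756) or 3 (0.65, adjusted p = 0.104), Ti replicate 1 (0.0503), and Ti+I-OG replicate 1 (0.0884) or 2 (0.142), and with length offsets (0.46, adjusted p = 0.0985), while 10 of the 13 alternatives other than leaving out a library kept it. Erythroid markers were highest in the same libraries, with 5 of 9 higher in Ti+I-OG against naive and 0 of 9 in the other comparisons. In Ti+I-OG against naive, 0 of these 9 markers were called with length offsets and 1 without naive replicate 3. Their part in the Gpx1 result was not tested. As a share of all counts, Gpx1 took 0.142% to 0.204% in naive and 0.245% to 0.288% in Ti+I-OG.

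The proportion of the 2 glutathione peroxidases differed between groups. Gpx3 per Gpx1, from FPKM, was 0.113, 0.111 and 0.103 in naive, 0.19, 0.246 and 0.168 in Ti, and 0.116, 0.135 and 0.143 in Ti+I-OG. Each Ti library had a higher ratio than any other library. Each Ti+I-OG library had a higher ratio than any naive library, though narrowly at the closest (0.116 against 0.113). This ratio is a description, was made without length offsets and was given no test.

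**Figure D3:**
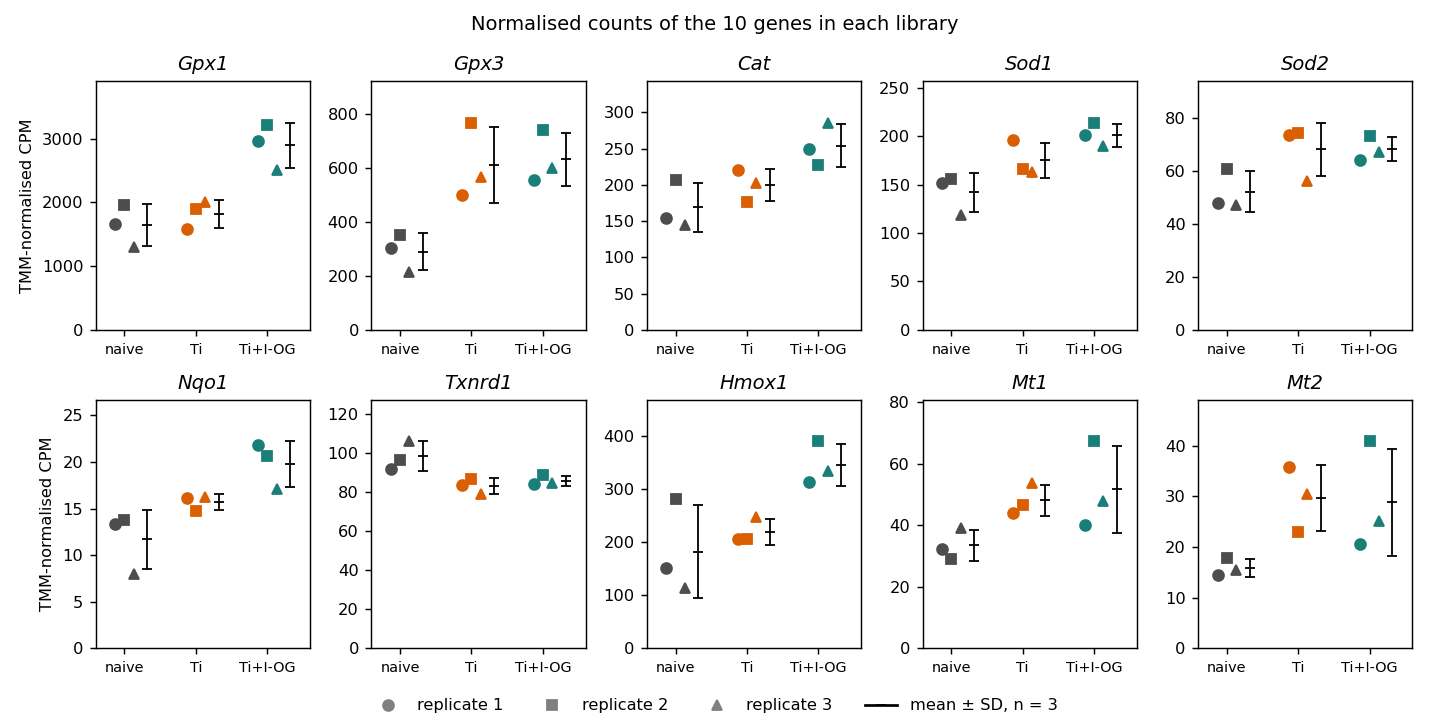
TMM-normalised CPM of the 10 genes in each of the 9 libraries, with a panel for each gene and axes that start at 0. Symbols mark the replicate number and bars give the mean ± SD of 3 libraries. Gpx3, Sod1, Mt1, Mt2 and Nqo1 are higher in every treated library than in any naive one, and Txnrd1 is lower. Gpx1, Nqo1, Cat and Hmox1 are higher in every Ti+I-OG library than in any other.

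Cat encodes catalase, the peroxisomal enzyme that splits hydrogen peroxide without a reducing cofactor. It was at 155, 207 and 145 CPM in naive, 221, 177 and 203 CPM in Ti, and 249, 227 and 286 CPM in Ti+I-OG. The Ti+I-OG libraries were the highest, though by a narrow margin over Ti replicate 1. Cat rose 1.5-fold in Ti+I-OG against naive (log2 fold change 0.59, SE 0.165, adjusted p = 0.0495). The log2 fold change was 0.24 (adjusted p = 0.359) in Ti against naive and 0.34 (adjusted p = 0.631) in Ti+I-OG against Ti. The call stood close to the threshold: of the 9 fits that each leave out a library it held in 1, that without naive replicate 2, and the other 8 gave adjusted p-values of 0.0511 to 0.19. Without naive replicate 3 the log2 fold change in Ti+I-OG against naive was 0.46 (adjusted p = 0.19). Of the 13 other alternatives (other factors, filters, tools and offsets) 6 kept the call. The erythroid values given above move with Cat too, and their part was not tested.

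Sod1 and Sod2, the superoxide dismutases, did not pass in any comparison of the fit without a replicate block. Sod1, the copper and zinc enzyme of the cytosol, was at 152, 156 and 119 CPM in naive, 196, 166 and 163 CPM in Ti, and 201, 214 and 190 CPM in Ti+I-OG. Both treated groups lay above naive in every library, and they overlapped each other. The Sod1 log2 fold change in Ti+I-OG against naive was 0.50 (SE 0.142), with an adjusted p of 0.05005 just over the threshold. It was 0.30 (adjusted p = 0.2) in Ti against naive and 0.21 (adjusted p = 0.711) in Ti+I-OG against Ti. In Ti+I-OG against naive, Sod1 passed without naive replicate 2 (adjusted p = 0.0376) or Ti replicate 3 (0.0487). It also passed there with DESeq2 (0.0144), limma-voom (0.0498), upper-quartile factors (0.0424) or the replicate block (0.51, adjusted p = 0.0109). Its log2 fold change there was 0.02 with length offsets, and 0.36 (adjusted p = 0.192) without naive replicate 3. Sod1 shares 465 of 641 transcript bases at 97.8% identity with the pseudogene Gm8566, so its counts are uncertain.

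Sod2, the manganese enzyme of mitochondria, was at 48, 61 and 47.4 CPM in naive, 73.6, 74.5 and 56.4 CPM in Ti, and 64.4, 73.3 and 67.2 CPM in Ti+I-OG. Ti replicate 3 was below naive replicate 2, so Ti and naive overlapped, while every Ti+I-OG library was above every naive one. The log2 fold change was 0.39 in both comparisons with naive (SE 0.149, adjusted p = 0.128 and 0.109) and 0.00 between Ti+I-OG and Ti (95% interval −0.32 to 0.33). Without Ti replicate 3 the difference between Ti and naive was 0.51 (adjusted p = 0.0422), and without naive replicate 2 that between Ti+I-OG and naive was 0.52 (adjusted p = 0.0482). With the replicate block Sod2 passed in Ti+I-OG against naive (0.40, adjusted p = 0.0281).

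Nqo1, a quinone reductase and one of the most used readouts of NRF2, was lowly expressed. It was at 13.4, 13.8 and 8.04 CPM in naive, 16.1, 14.7 and 16.2 CPM in Ti, and 21.8, 20.7 and 17.1 CPM in Ti+I-OG. The 3 groups did not overlap, with naive lowest and Ti+I-OG highest. Nqo1 rose 1.69-fold in Ti+I-OG against naive (log2 fold change 0.76, SE 0.204, adjusted p = 0.0455). The step from naive to Ti was 0.42 (adjusted p = 0.21) and that from Ti to Ti+I-OG 0.34 (adjusted p = 0.67). The call held without naive replicate 2 or Ti replicate 3, and the other 7 such fits gave adjusted p-values of 0.0531 to 0.17. Without naive replicate 3 the log2 fold change was 0.52 (adjusted p = 0.136), and with length offsets 0.57 (adjusted p = 0.105). Of the 13 other alternatives 9 kept the call.

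Txnrd1, the cytosolic thioredoxin reductase, was the only member with a negative log2 fold change against naive. It was at 91.8, 96.5 and 106 CPM in naive, 83.5, 86.7 and 78.8 CPM in Ti, and 84, 88.5 and 84.3 CPM in Ti+I-OG. Every naive library was above every treated one, and the libraries of Ti and Ti+I-OG overlapped. The log2 fold change was −0.24 in Ti (SE 0.112, adjusted p = 0.188) and −0.20 in Ti+I-OG (SE 0.112, adjusted p = 0.254), neither of which passed. From FPKM, with limma-trend on log2(FPKM + 1), Txnrd1 passed in Ti+I-OG against naive (−0.43, adjusted p = 0.0383). On that scale the median over all tested genes was −0.12.

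Hmox1 encodes the inducible haem oxygenase, which frees iron from haem. It was at 152, 281 and 114 CPM in naive, 205, 205 and 247 CPM in Ti, and 313, 390 and 333 CPM in Ti+I-OG. Naive replicate 2 lay above all Ti libraries, and naive varied most, with an SD of 87.3 around a mean of 182 CPM. The Ti+I-OG libraries were all above the rest. The log2 fold change was 0.92 (SE 0.267, adjusted p = 0.0542) against naive, 0.66 (SE 0.266, unadjusted p = 0.0304, adjusted p = 0.63) against Ti, and 0.27 (adjusted p = 0.54) for Ti against naive. No comparison passed in this fit. Without naive replicate 2, Hmox1 passed in Ti (0.72, adjusted p = 0.0358) and in Ti+I-OG (1.37, adjusted p = 0.00582) against naive, and without naive replicate 3 the difference between Ti and naive was 0.00. DESeq2 (adjusted p = 0.0107) and limma-voom (0.0444), and the fit with the replicate block (0.0129), called Hmox1 in Ti+I-OG against naive. The summed macrophage markers were 0.0951% to 0.115% of counts in naive, 0.11% to 0.118% in Ti and 0.112% to 0.122% in Ti+I-OG, with 1 of 9 higher in each comparison with naive. With length offsets, or without naive replicate 3, 0 of these 9 markers were called there. In Ti+I-OG against naive, DESeq2 and the replicate block each called 5 of the 9 higher, where 17.5% and 24.3% of all genes were called. Limma-voom called 1 of the 9 higher, where 6.57% of all genes were called. Of the 9 erythroid markers, DESeq2, the replicate block and limma-voom called 7, 7 and 5 higher. The part of the macrophage and erythroid markers in the Hmox1 result was not tested.

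Mt2 and Mt1, the metallothioneins of most tissues, lay above naive in every treated library. Mt2 was at 14.4, 17.8 and 15.4 CPM in naive, 35.8, 22.9 and 30.5 CPM in Ti, and 20.6, 40.9 and 25.1 CPM in Ti+I-OG. All treated libraries exceeded all naive ones, and Ti and Ti+I-OG covered much the same range. Mt2 rose 1.87-fold in Ti (log2 fold change 0.91, SE 0.245), with an adjusted p of 0.04995. In Ti+I-OG against naive the log2 fold change was 0.86 (SE 0.246, adjusted p = 0.0521), which did not pass, and between Ti+I-OG and Ti it was −0.05 (95% interval −0.58 to 0.48). Without naive replicate 3 the log2 fold change in Ti against naive was 0.86 (adjusted p = 0.152). Of the 9 fits that each leave out a library, the call in Ti held in 1, that without Ti+I-OG replicate 2. The other 8 gave adjusted p-values of 0.0504 to 0.175, and of the 13 other alternatives 5 kept the call, with RLE factors at an adjusted p of 0.0513 and length offsets at 0.13 (log2 fold change 0.60). In Ti+I-OG against naive, Mt2 passed without naive replicate 2 (adjusted p = 0.0483) or Ti replicate 2 (0.0464), with DESeq2 (0.0142) and with the replicate block (0.0289). Exons of the antisense gene Gm45774 cover 73.5% of the exonic bases of Mt2 in GENCODE M21, and the library kit does not mark strand, so the Mt2 counts are uncertain.

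Mt1 was at 32.2, 29.2 and 39.1 CPM in naive, 44.1, 46.5 and 53.7 CPM in Ti, and 40, 67.4 and 47.9 CPM in Ti+I-OG. Here too no treated library reached down to naive, though the margin between Ti+I-OG replicate 1 and naive replicate 3 was under 1 CPM. The log2 fold change was 0.52 (SE 0.19, adjusted p = 0.114) in Ti and 0.62 (SE 0.191, adjusted p = 0.062) in Ti+I-OG against naive, and 0.10 (adjusted p = 0.906) between the treated groups. With length offsets it was 0.20 and 0.05 against naive. With the replicate block Mt1 passed in Ti+I-OG against naive (0.61, adjusted p = 0.0247). Mt2 per Mt1, from FPKM, ran from 0.423 to 0.66 in naive, from 0.529 to 0.872 in Ti and from 0.553 to 0.652 in Ti+I-OG, so the ratio overlapped between groups. Ti+I-OG replicate 2 was the highest library for both metallothioneins, and for Gpx1, Hmox1 and Sod1 as well.

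**Figure D4:**
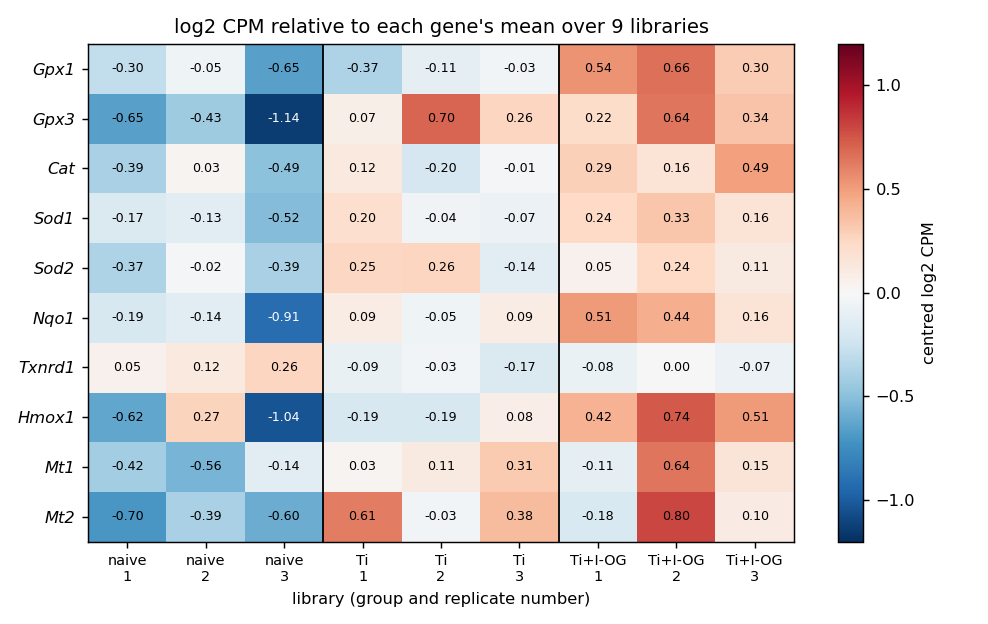
Log2 CPM of each gene relative to its mean over the 9 libraries, with the value in each cell (blue below the mean, red above). Naive replicate 3 is the lowest library for 7 genes, from −1.14 for Gpx3 to −0.39 for Sod2, and Ti+I-OG replicate 2 the highest for 5, from 0.33 for Sod1 to 0.80 for Mt2.

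Against naive, the fold changes of short and long transcripts differed in level across all genes. Spearman's correlation of fold change with transcript length was −0.24 in Ti against naive, −0.324 in Ti+I-OG against Ti and −0.401 in Ti+I-OG against naive, over 14211 genes that share the same libraries. The members ran from 511 bases (Mt2), 549 (Mt1), 641 (Sod1) and 960 (Gpx1) to 3206 (Txnrd1) and 5799 (Sod2). With the length trend of each library removed, the log2 fold change in Ti+I-OG against naive went from 0.86 to 0.29 for Mt2, from 0.62 to 0.05 for Mt1, from 0.50 to 0.02 for Sod1, from 0.82 to 0.46 for Gpx1 and from 0.39 to 0.63 for Sod2. Gpx3 kept its calls, with 0.98 (adjusted p = 0.0198) in Ti and 0.94 (adjusted p = 0.0326) in Ti+I-OG.

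**Figure D5:**
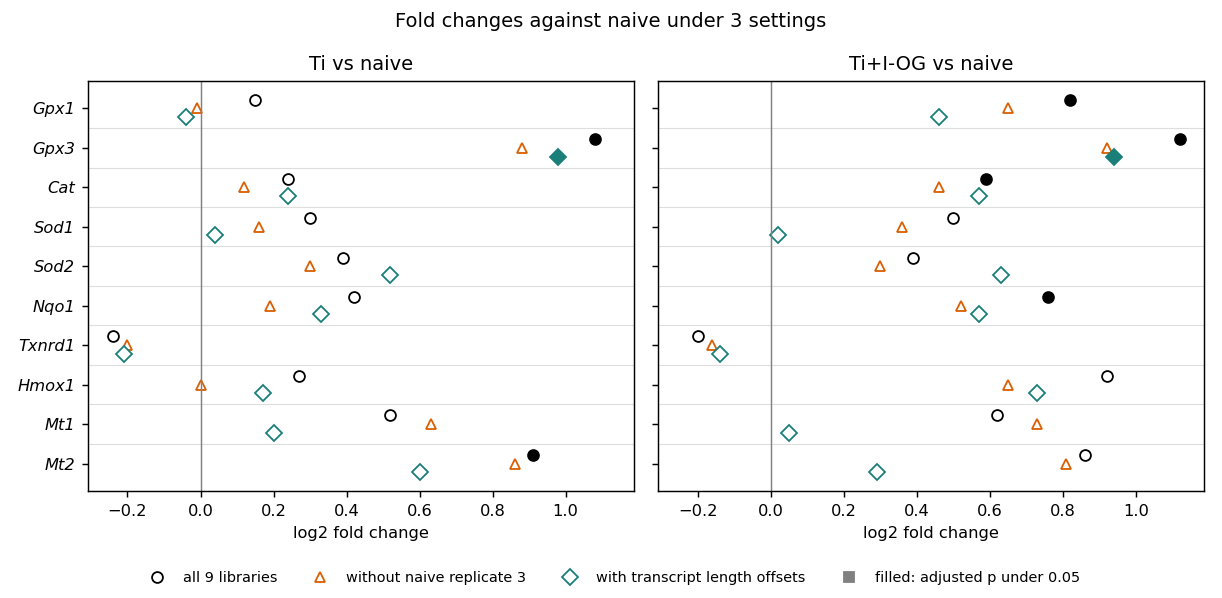
Log2 fold change against naive of the 10 genes with all 9 libraries, without naive replicate 3, and with transcript length offsets. Filled symbols have an adjusted p under 0.05. Gpx3 with length offsets is the only filled symbol outside the fits of all 9 libraries without offsets.

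Around the members, 9 lists of related genes held 93 other genes, of which 92 were tested. In Ti against naive 5 were higher and 4 lower, where 6.43% of all genes were called. None passed in Ti+I-OG against Ti, where 0.0422% of all genes did. In Ti+I-OG against naive 12 were higher and 7 lower, where 8.26% of all genes were called. These shares of all genes are also the background of the counts of each list. The median log2 fold changes of the 92 genes were 0.10, −0.02 and 0.08. With the replicate block 26 were higher and 14 lower in Ti+I-OG against naive, where 24.3% of all genes were called. Without naive replicate 3, 1 gene of the 93, Ephx1, stayed called in each comparison with naive, where 1.48% and 1.3% of all genes were. With length offsets the counts in Ti+I-OG against naive were 2 higher and 2 lower, where 2.49% of all genes were called.

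Among 14 genes of glutathione synthesis, recycling and the other peroxidases, none was called in Ti and 2 rose in Ti+I-OG against naive. Rises and falls of list genes are given as log2 fold changes. Gpx4, which repairs oxidised membrane lipids, rose by 0.80 (adjusted p = 0.033) from 275 ± 57.3 to 480 ± 58.4 CPM. With length offsets its log2 fold change was 0.42 (adjusted p = 0.119). Glrx5, a mitochondrial glutaredoxin of iron-sulfur cluster assembly, rose by 1.04 (adjusted p = 0.0273) from 101 ± 34.8 to 209 ± 19.5 CPM (SD, n = 3 each). The list's median log2 fold changes were 0.14 in Ti against naive, 0.13 in Ti+I-OG against Ti and 0.28 in Ti+I-OG against naive. Of 12 genes of thioredoxins, peroxiredoxins and their partners, none passed in Ti and 3 rose in Ti+I-OG against naive. These were Prdx2, the abundant peroxiredoxin of red cells (0.99, adjusted p = 0.0303, from 531 ± 186 to 1050 ± 64.9 CPM), and 2 mitochondrial enzymes, Txnrd2 (0.88, adjusted p = 0.0278) and Prdx3 (0.55, adjusted p = 0.0462, and 0.33, adjusted p = 0.171, with length offsets). The medians of this list were 0.27, 0.13 and 0.48 in the same order. Txnrd2 and its cytosolic relative Txnrd1 had fold changes of opposite sign against naive, though that of Txnrd1 did not pass. The erythroid markers moved with these calls, and their part was not tested.

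Of 3 further genes of superoxide handling, Sod3, the extracellular superoxide dismutase, rose in Ti, with 3.57 ± 0.463 CPM in naive against 10.3 ± 2.59 CPM (a log2 fold change of 1.53 at adjusted p = 0.0175). It stood at 7.26 ± 2.69 CPM in Ti+I-OG. Atox1, a copper chaperone, rose in Ti+I-OG against naive (0.78, adjusted p = 0.0236), a value that was 0.25 (adjusted p = 0.238) with length offsets. Of 8 NADPH oxidase and myeloperoxidase genes, which make the oxidants, Nox4 rose in Ti, with 0.66 ± 0.498 CPM in naive against 4.1 ± 2.34 CPM (a log2 fold change of 2.61 at adjusted p = 0.0342), a low level with a wide spread. Cybb, the catalytic subunit of the phagocyte oxidase, fell by 0.86 in Ti+I-OG against naive (adjusted p = 0.0303), from 990 ± 252 to 547 ± 61.4 CPM. Ncf4, one of its cytosolic partners, fell by 0.59 (adjusted p = 0.0487). Neutrophil markers, none of 8 of which was called, took 3.64% to 4.97% of counts in naive and 2.56% to 3.57% in Ti+I-OG, and their part was not tested.

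Of the 9 genes of NRF2 and its partners, none was called in Ti and 1 fell in Ti+I-OG against naive. Nfe2l2, which encodes NRF2, was at 132 ± 12.4 CPM in naive, 141 ± 12.8 CPM in Ti and 129 ± 7.05 CPM in Ti+I-OG, and Keap1, its inhibitor, at 39.6 ± 4.55, 36.5 ± 3.12 and 39.5 ± 1.14 CPM. These 2 genes were singled out after their values were seen. Bach1, a repressor at antioxidant response elements that haem inactivates, fell by 0.68 in Ti+I-OG against naive (adjusted p = 0.0251), from 82.2 ± 14 to 51.2 ± 3.71 CPM, and by 0.42 (adjusted p = 0.0611) with length offsets. Of 16 other NRF2 targets, 2 rose and 1 fell in Ti, and 2 rose and 2 fell in Ti+I-OG against naive. Ephx1, a microsomal epoxide hydrolase, rose by 1.09 (adjusted p = 0.00934) and 0.98 (adjusted p = 0.0158), and by 0.93 (adjusted p = 0.0291) and 0.82 (adjusted p = 0.0498) without naive replicate 3. Me1, which makes NADPH and serves fat synthesis, rose by 1.54 (adjusted p = 0.0331) and 1.44 (adjusted p = 0.0387). G6pdx, the first enzyme of the pentose phosphate pathway and also a source of NADPH, fell by 0.84 (adjusted p = 0.0441) and 0.93 (adjusted p = 0.0321). Abcc4, an exporter, fell by 0.81 in Ti+I-OG against naive (adjusted p = 0.049). The medians of the targets were −0.04, −0.09 and 0.01, near those of all genes.

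Of 10 tested genes of haem breakdown, iron storage and export, 3 rose in Ti+I-OG against naive and 1 fell in Ti. Blvrb, a biliverdin reductase, rose by 1.13 (adjusted p = 0.0294) from 197 ± 76.8 to 431 ± 24.3 CPM, the related Blvra by 0.55 (adjusted p = 0.0471), and Ftl1, the ferritin light chain, by 0.72 (adjusted p = 0.0427) from 1630 ± 285 to 2680 ± 435 CPM. With length offsets Blvra was at 0.25 (adjusted p = 0.249) and Ftl1 at 0.35 (adjusted p = 0.155). Here again the erythroid markers moved alongside, and their part was not tested. Cd163, the haemoglobin receptor of macrophages, fell by 0.81 in Ti (adjusted p = 0.043), from 19 ± 2.47 to 10.8 ± 2.12 CPM, and stood at 17 ± 3.88 CPM in Ti+I-OG. Of 14 genes of zinc and copper handling, 1 rose and 2 fell in each comparison with naive. Mt3, the metallothionein best known from brain, rose by 1.89 in Ti (adjusted p = 0.0248) and 2.02 in Ti+I-OG (adjusted p = 0.0246), from 1.34 ± 0.825 CPM in naive to 5.04 ± 0.317 and 5.54 ± 1.89 CPM. Mtf1, which encodes the zinc-sensing activator of the metallothionein genes, fell by 0.70 (adjusted p = 0.0334) and 0.59 (adjusted p = 0.0497), the latter −0.39 (adjusted p = 0.127) with length offsets. Atp7a, a copper exporter, fell by 1.10 (adjusted p = 0.045) and 1.22 (adjusted p = 0.0332). Metallothionein genes also respond to glucocorticoids. None of 10 glucocorticoid-responsive genes passed in the reported fit. Those with the smallest p were Fkbp5 (−1.25, adjusted p = 0.0671) and Cdkn1a (0.66, adjusted p = 0.0685) in Ti+I-OG against naive. In that comparison DESeq2 called 1 of the 10 higher, and the replicate block 1 higher and 1 lower. These fits called 17.5% and 24.3% of all genes. The part of glucocorticoids in the metallothionein values was not tested.

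Most of these neighbouring calls were no firmer than those of the members. Without naive replicate 3, the called genes other than Ephx1 had adjusted p-values of 0.0618 to 0.173 in the comparisons with naive. With length offsets, 4 of the 19 calls in Ti+I-OG against naive were kept, those of Glrx5, G6pdx, Ephx1 and Ncf4, and of the 9 calls in Ti that of Cd163 ended (−0.74, adjusted p = 0.0562). The counts of Ftl1, G6pdx, Gpx4, Me1 and Prdx2 are uncertain, as each has a copy of at least 90% identity over at least 25% of its transcript. Exons on the opposite strand also cover part of the exonic bases of Ftl1 (26.5%), G6pdx (13.6%), Mtf1 (8.09%), Prdx2 (5.67% by Junb and 5.8% by Rnaseh2a), Txnrd2 (4%) and Me1 (0.78%). On the same strand, other genes share exonic bases with Ftl1 (8.13%) and Ephx1 (3.69%).

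For each member called in any comparison, the 3 genes with the most similar profile over the 9 libraries were found among 11751 genes, by the root-mean-square difference of centred log2 CPM. For Gpx1 these were Mrps24 (0.0956), Slc25a38 (0.0958), a mitochondrial glycine carrier needed for haem synthesis, and Gpx4 (0.0971). For Gpx3 they were Pcbp4 (0.0889), Apbb1 (0.122) and Pdgfa (0.132), a platelet-derived growth factor chain. For Nqo1 they were Hscb (0.0899), a cochaperone of iron-sulfur cluster assembly, Hint2 (0.0996) and Mettl23 (0.103), and for Cat Minpp1 (0.0905), Sh3yl1 (0.0983) and Btrc (0.116). The profile of Mt2 was matched less closely, by Cetn4 (0.225), Slc25a33 (0.24) and Micos13 (0.241). Mt1 was not among the 3. Counts of Mettl23 and Minpp1 are uncertain because of near-identical copies. Opposite-strand exons cover 26.1% of the exonic bases of Pdgfa, 14.9% of Slc25a33, up to 17.1% (by Srsf2) of Mettl23, and under 2% by any single gene of Pcbp4, Btrc and Cetn4, while Minpp1, Mrps24 and Mettl23 share 23.8%, 15.4% and 9.53% with a gene on the same strand. The members' own SD over libraries, from 0.298 for Cat to 0.582 for Gpx3, sets the scale of these differences.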

How the data were processed

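Polyadenylated RNA of mouse tibia was, per the labels' protocols, made into Illumina libraries with the NEBNext Ultra kit, which does not mark strand. Tools named without a role in the submitters' processing notes are RSEM, StringTie 1.3.1, fastp, edgeR and DESeq2. Aligner, genome build and annotation: not given in the sources used here. The authors deposited estimated counts, which were rounded here before testing, and FPKM values, used as deposited for levels. The depth of 16256081 to 24766502 counts left each member with at least 192 counts in every library.

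Titles gave each sample's group and replicate number. The 10 members and all gene lists were chosen with earlier results of these data known. One fit of 9 libraries, a mean per group, was made with edgeR 4.0.16 (R 4.3.3): TMM factors, filterByExpr, quasi-likelihood test, 6 residual degrees of freedom, two-sided, Benjamini-Hochberg over 14211 genes, threshold 0.05. The SE is the log2 fold change over the root of F. Other fits used DESeq2 1.42.0, limma 3.58.1, other factors, filters and group sets, length offsets (loess, span 0.5, of log2 CPM on transcript length), the replicate block, and each library left out. Transcript length came from the ratio of counts to FPKM. Chi-square tests between replicates gave 13.1 to 136 for each degree of freedom, so every library was kept as its own sample. No label gives a batch. Same-numbered libraries of naive and Ti+I-OG had correlated deviations from their group means in all 3 pairs (0.197, 0.115 and 0.273). Such a pairing comes from the data and not from the labels, and the reported fit did not use it. The replicate block, an alternative fit, covered all 9 libraries and not these pairs alone. In the other comparisons the lowest correlation was −0.024 (naive and Ti) or 0.074 (Ti and Ti+I-OG, whose other pairs had 0.203 and 0.22). Between Ti and Ti+I-OG, all 3 libraries of each group correlated best with their own number.

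Named genes were all 10 members, and in each list up to 3 called genes per comparison and direction with the smallest p. For a list with no call, the 2 with the smallest p were taken. For called members, the 3 genes with the smallest root-mean-square difference were added. Promoter windows are RefSeq's on GRCm38.p6. Exon overlaps were taken from GENCODE M21 by gene name, and copies by a blastn search of its transcripts. The edgeR code was run on simulated counts with the same dispersion for all genes and no length trend. These data differ in that, so the run says nothing about single calls here.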

Additional observations from a re-analysis of the deposited data

How the results depend on the processing

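Of 660 refits of single members (10 genes, 3 comparisons, 22 alternatives), 540 kept direction and side of the threshold, 57 lost the call, 31 gained one and 32 changed sign, none of the latter in Ti+I-OG against naive. No alternative called a member in Ti+I-OG against Ti. In Ti against naive 1 member was called with RLE factors, without globin and mitochondrially encoded genes, with the stricter filter, limma-voom, limma-trend on log2(FPKM + 1) or log2(FPKM + 0.1), and length offsets. In the same order, these fits called 6.3%, 6.45%, 6.89%, 6.23%, 3.91%, 3.83% and 5.74% of all genes there. All genes called there numbered 1859 with DESeq2, and 556 and 544 with the limma-trend fits. They numbered 357 with only the 2 groups compared and 914 as reported. DESeq2 called 16 genes in Ti+I-OG against Ti instead of 6. Members called in Ti+I-OG against naive were 7 with upper-quartile factors, 8 with DESeq2 and 2 with limma-trend on log2(FPKM + 1). There was 1 with only the 2 groups and 1 with length offsets. Upper-quartile factors called 7.62% of all genes there. All genes called there were 2440 with DESeq2, 1787 and 1853 with the limma-trend fits, 770 with only the 2 groups and 354 with length offsets, in place of 1174. Upper-quartile factors moved the median log2 fold change of all genes to 0.096 and 0.12 against naive and the share of calls that were higher from 62.9% to 71.7% in Ti and from 46.4% to 60.7% in Ti+I-OG. FPKM moved it in Ti+I-OG to −0.12 and −0.164, with 16.2% and 17.1% of calls higher. The causes were not tested. Fewer samples enter the fits of 2 groups and those with a library left out, and the part of this was not tested either.

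With a library left out, the members called were 0 to 2 in Ti against naive and 0 to 8 in Ti+I-OG against naive, and all genes called were 100 to 1999, 0 to 6 (Ti+I-OG against Ti) and 59 to 2119. The 2-library groups were assumed to vary like the others. Between Ti and naive, where same-numbered libraries correlated by −0.024, 0.333 and 0.239, the samples were taken to share only a number, and in each of these groups 2 of 3 libraries correlated best with their own number. There the replicate block called 4 members and 2968 genes (20.9%), adding Sod2 (adjusted p = 0.0339) and Mt1 (0.0487). In Ti+I-OG against naive it called 9 members and 3450 genes. It ended no reported call of a member or list gene. With length offsets and the replicate block, 2706 and 2097 genes were called.

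Sign changes were small. In Ti against naive, Gpx1 went to −0.04 with length offsets, −0.03 with the block added and −0.01 without naive replicate 3, and Hmox1 to 0.00 without naive replicate 3. In Ti+I-OG against Ti, Sod2 went to −0.01 with RLE factors and with DESeq2, to 0.00 with upper-quartile factors, only the 2 groups, or without naive replicate 3, and to −0.12 and −0.05 without Ti replicate 3 or Ti+I-OG replicate 2. The limma-trend fits gave −0.06 for Gpx3, −0.10 for Sod2, −0.07 for Txnrd1 and −0.04 for Mt1. Length offsets gave −0.05 for Gpx3, −0.02 for Sod1 and −0.15 for Mt1, and −0.03, −0.02 and −0.15 with the block. Gpx3 was −0.08, 0.00 and −0.09 without Ti replicates 1 and 3 and Ti+I-OG replicate 2. Mt1 was −0.13 without Ti+I-OG replicate 2. Mt2 was 0.11 without Ti replicate 1, and 0.15 and 0.04 without Ti+I-OG replicates 1 and 3. Over the 9 fits with a library left out, the ranges were −0.01 to 0.30 for Gpx1 and 0.00 to 0.72 for Hmox1 in Ti against naive. In Ti+I-OG against Ti they were −0.09 to 0.25 for Gpx3, −0.12 to 0.07 for Sod2, −0.13 to 0.26 for Mt1 and −0.38 to 0.15 for Mt2.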
